A study of Mus musculus with 17 samples.

Results

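The transcripts described here are those of 8 genes at the core of the STING pathway, of 55491 rows in each deposited count table. They were chosen by symbol and comprise the DNA sensor Cgas, the adaptor Sting1, the kinases Tbk1 and Ikbke, and 4 genes whose products hold the pathway back, Trex1, Enpp1, Nlrc3 and Stim1. All 8 were found in both tables and all 8 passed the filter on low counts in both cell types. RNA was sequenced from 17 mouse libraries, 9 of B cells from the spleen and 8 of dendritic cells grown from bone marrow (BMDC), which present antigen to T cells. The B cell groups were MSA2 plus IPI-549 (3 libraries), MSA2 (3) and Control (3), and the BMDC groups MSA2 plus IPI-549 (2), MSA2 (3) and Control (3). MSA2 is a small molecule, not a nucleotide, that binds and activates STING, and IPI-549 (eganelisib) inhibits the lipid kinase PI3Kγ of white blood cells. MSA2 plus IPI-549 is called the combination below. All groups, Control included, came from KPC mice (a pancreatic cancer model) according to the series description, while the genotype label of all 17 reads WT. The treatment label reads Control throughout, so groups rest on the sample titles. The labels give no age, dose, time, sorting step or separate mice for the replicates, and no group received IPI-549 alone. The p-values below therefore measure the spread between these libraries, which may be technical.

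STING is an adaptor in the membrane of the endoplasmic reticulum. When cGAS binds DNA in the cytosol it makes the cyclic dinucleotide cGAMP, cGAMP binds STING, and STING moves to the Golgi, where it recruits the kinase TBK1 and its relative IKKε. These kinases phosphorylate IRF3, which switches on type I interferon and the genes interferon induces. Several brakes act on this route. TREX1 is an exonuclease that removes DNA before cGAS can bind it, and ENPP1 breaks down cGAMP outside the cell. NLRC3 binds STING and TBK1 and keeps them apart in mouse cells, and STIM1, the calcium sensor of the endoplasmic reticulum, also holds STING there. An agonist such as MSA2 binds STING itself, a step after cGAS, TREX1 and ENPP1. Dendritic cells are a major source of interferon through this route.

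Total counts per library were 41090638 to 51429550 in B cells and 34757983 to 73163252 in BMDC, with BMDC MSA2 replicate 2 the deepest. In the B cell MSA2 libraries, markers of T, NK, myeloid, erythroid and mast cells stood far above both other groups. The 12 T cell markers summed to 1105 to 1393 CPM (the count scaled to a common library size) with MSA2, 51.7 to 60.5 with the combination and 64.7 to 84.0 in Control. The sums were 1449 to 1649, 45.2 to 47.6 and 42.1 to 63.7 CPM for 12 monocyte and macrophage markers, and 1644 to 1715, 0.573 to 1.02 and 2.38 to 35.3 CPM for 12 neutrophil markers, in the same order. They were 355 to 435, 6.56 to 10.7 and 14.3 to 19.9 CPM for 10 NK cell markers, 1059 to 1232, 18.3 to 22.6 and 21.9 to 45.1 CPM for 9 erythroid markers, and 33.6 to 39.8, 2.03 to 2.98 and 2.10 to 2.79 CPM for 8 mast cell and basophil markers. The marker lists were chosen with earlier results of these data known. All 63 of these markers were called higher in MSA2 than in Control, and none of them was at 0 counts in any MSA2 library. In single combination libraries up to 7 of the 12 neutrophil markers were at 0, and in single Control libraries up to 4. The 12 dendritic cell markers summed to 3351 to 4149 CPM with MSA2, 6276 to 6820 with the combination and 6088 to 6293 in Control, although 8 of them were called higher and 1 lower with MSA2 than in Control. For 6 plasma cell markers the sums were 2036 to 2368, 1261 to 1491 and 1364 to 1647 CPM, with 3 called higher and 2 lower. The 12 B cell markers were all lower with MSA2 than in Control, with a median log2 fold change of -0.97, and 0 of the 12 were called in the combination by edgeR, DESeq2 or limma-voom (1 at an unadjusted p under 0.05 in edgeR). The B cell MSA2 libraries also carry later library numbers than the other B cell libraries, so treatment, library order and cell make-up cannot be told apart there. In BMDC, the monocyte and macrophage markers summed to 14963 to 20488 CPM and the dendritic cell markers to 4207 to 4965 CPM over the 8 libraries, against 32.8 to 49.3 CPM for the B cell markers. The neutrophil markers summed to 705 to 971 CPM there, plasma cell markers to 438 to 676, and mast cell and basophil markers to 25.5 to 34.5. The T, NK and erythroid markers reached at most 16.8, 9.72 and 3.26 CPM in any BMDC library. Whether other cells were present in the BMDC libraries was not tested. In bulk RNA, fewer cells of a type and less RNA per cell cannot be told apart.

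Of the 8 genes, 2 are shown by sequence at the start of their transcripts, Trex1 because it rose in both cell types and with both treatments, and Ikbke because its change with MSA2 differed most between the cell types. The windows run from 250 bases before to 50 bases after a start annotated in RefSeq (GRCm38.p6), 5′ to 3′ on the gene's strand, with the bases from the start onward in capitals. Trex1 has 2 annotated starts. The windows are those of the upstream Trex1 start at chr9:109059674-109059973 (minus strand), of the downstream Trex1 start at chr9:109059202-109059501 (minus strand) and of Ikbke at chr1:131279514-131279813 (minus strand).
Trex1, upstream start: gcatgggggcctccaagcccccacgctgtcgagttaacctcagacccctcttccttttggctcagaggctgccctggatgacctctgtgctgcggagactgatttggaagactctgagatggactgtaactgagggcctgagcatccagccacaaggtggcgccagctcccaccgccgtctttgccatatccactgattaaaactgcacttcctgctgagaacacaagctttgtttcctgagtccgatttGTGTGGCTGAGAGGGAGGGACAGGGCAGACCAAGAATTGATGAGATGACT
Trex1, downstream start: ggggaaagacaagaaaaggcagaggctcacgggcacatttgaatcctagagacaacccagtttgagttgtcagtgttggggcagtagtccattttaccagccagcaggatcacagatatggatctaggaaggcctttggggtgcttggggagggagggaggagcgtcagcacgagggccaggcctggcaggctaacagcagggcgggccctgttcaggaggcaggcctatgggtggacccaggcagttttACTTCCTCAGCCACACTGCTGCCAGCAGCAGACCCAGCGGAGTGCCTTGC
Ikbke: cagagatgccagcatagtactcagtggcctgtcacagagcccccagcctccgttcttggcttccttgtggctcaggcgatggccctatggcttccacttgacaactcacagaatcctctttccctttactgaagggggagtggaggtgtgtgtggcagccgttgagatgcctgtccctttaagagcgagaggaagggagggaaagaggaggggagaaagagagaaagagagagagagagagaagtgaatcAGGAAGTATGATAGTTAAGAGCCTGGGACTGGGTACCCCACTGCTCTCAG
Sting1 was left out of the sequence search, which used the RefSeq windows of the other 7 genes, 8 windows in all. They were searched on both strands for the core of the interferon-stimulated response element (GAAANNGAA), the gamma-activated site (TTCNNNGAA) and a subset of NF-κB sites (GGGANNTTC). None of the 8 windows held any of these letters. Of all 32851 promoter windows of this length, 8.56% held the first, 8.30% the second and 3.94% the third. Among 3 interferon output genes, the window of Ifit1 held the first motif 3 times, that of Isg15 3 times and that of Cxcl10 once. The motifs may overlap one another. A match or its absence in these windows describes the letters only.

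Before treatment the 2 cell types held the pathway at different levels. Untreated BMDC had more of the sensor, the adaptor and both kinases, and less Nlrc3, Enpp1 and Stim1, than untreated B cells. Of the 8 genes, 7 were called at an adjusted p under 0.05 (quasi-likelihood test of edgeR, adjusted by Benjamini-Hochberg over all genes, as for all adjusted p-values below), against 79.9% of the 17739 genes tested in this comparison. The share among all genes was thus close to that among the 8. The log2 fold changes, untreated BMDC over untreated B cells, were 2.74 ± 0.20 (SE) for Cgas, 1.74 ± 0.09 for Ikbke, 1.62 ± 0.08 for Sting1 and 0.47 ± 0.10 for Tbk1. They were -2.65 ± 0.12 for Enpp1, -2.54 ± 0.14 for Nlrc3 and -0.84 ± 0.06 for Stim1. Trex1 was not called (-0.39 ± 0.20, adjusted p = 0.0763). It was called without any one of 5 libraries (B cell MSA2 replicates 2 and 3, BMDC Control replicate 1, and BMDC MSA2 replicates 1 and 2), at adjusted p = 0.0237 to 0.0481. It was also called by DESeq2 (adjusted p = 0.0422), with no filter (0.00555) and with the stricter filter (0.0396), and its value ran from -0.56 to -0.14 over 23 alternatives. The cell types carry different library name prefixes and come in separate count tables, so cell type and whatever else differs between those sets cannot be told apart.

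Per kilobase of exon, the order of the genes differed between the cell types. In untreated BMDC Sting1 led at 38.3 ± 2.32 CPM per kb (SD, n = 3), followed by Tbk1 at 20.2 ± 0.361 and Trex1 at 15.9 ± 3.22. Stim1 (4.67 ± 0.0847), Ikbke (3.92 ± 0.376) and Cgas (3.11 ± 0.180) came next, with Enpp1 at 0.556 ± 0.0718 and Nlrc3 at 0.332 ± 0.0213 last. In untreated B cells Trex1 led at 22.5 ± 2.44 CPM per kb, ahead of Tbk1 at 15.7 ± 1.76, Sting1 at 13.4 ± 0.664 and Stim1 at 8.98 ± 0.0432. Enpp1 (3.75 ± 0.265), Nlrc3 (2.08 ± 0.200), Ikbke (1.26 ± 0.0440) and Cgas (0.50 ± 0.11) followed. The libraries of Tbk1 and Sting1 overlapped in B cells, so their order there is not resolved, while no other neighbours in either order overlapped. Both orders depend on the exon union lengths used, from 1.147 kb for Trex1 to 10.37 kb for Stim1. The lengths of the transcripts present were not used, so the order of close neighbours could differ with them. With MSA2, Trex1 headed the order in both cell types, at 105 ± 29.6 CPM per kb in BMDC and 57.8 ± 14.4 in B cells, and with the combination at 80.8 ± 0.542 (n = 2) and 71.8 ± 8.31.

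The main question was how STING activation, with and without PI3Kγ inhibition, changed these genes. Trex1, one of the brakes, rose in both cell types with both treatments. Sting1 itself was called in none of the within-cell-type comparisons. Cgas rose with MSA2 in both cell types. Ikbke and Stim1 rose with MSA2 in B cells, and Tbk1 rose with MSA2 in BMDC. Nlrc3 was higher with MSA2 in B cells and lower with MSA2 in BMDC. The B cell changes with MSA2 occurred in the libraries with markers of other cells, and the part of those cells was not tested. With the combination in B cells, Trex1 alone was called against Control.

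In BMDC, MSA2 against Control called 3 of the 8 genes higher (Trex1, Cgas, Tbk1) and 1 lower (Nlrc3), beside 14.6% higher and 13.5% lower of 14613 genes tested. The median log2 fold change of the 8 was 0.07, beside -0.01 over all genes. The combination against Control called 1 higher (Trex1) and 1 lower (Nlrc3), beside 7.51% and 5.38% of all genes (median 0.02, beside 0.01 over all genes). Between the 2 treated BMDC groups, combination against MSA2, edgeR called 0 of 8, beside 0.0% of all genes in either direction. At an unadjusted p under 0.05 it held 2 of the 8 (Cgas and Tbk1) and 1595 of all genes. DESeq2 called 1 of the 8 (Cgas), beside 29 genes higher and 142 lower of 14613, and limma-voom 0, beside 1 and 2.

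In B cells, MSA2 against Control called 5 of the 8 higher (Ikbke, Trex1, Cgas, Nlrc3, Stim1) and 0 lower, beside 24.8% higher and 18.5% lower of 16194 genes tested. The median log2 fold change of the 8 was 0.69, beside -0.01 over all genes. Markers of T, NK, myeloid, mast and erythroid cells were high in the same MSA2 libraries (63 of 63 called higher), and their part in these calls was not tested. The combination against Control called 1 of 8 higher (Trex1) and 0 lower, beside 0.685% and 0.371% of all genes (median 0.04, beside -0.02). Against MSA2, the combination called 4 of 8 lower (Ikbke, Cgas, Nlrc3, Stim1) and 0 higher, beside 22.9% lower and 14.1% higher of all genes (median -0.10, beside 0.01). With the replicate block 6 of 8 were called, Trex1 and Enpp1 being added as higher, beside 2596 genes higher and 3802 lower of 16194. The contrasts with Control share the Control libraries, and those with MSA2 share the MSA2 libraries, so they are not independent of each other.

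**Figure D1:**
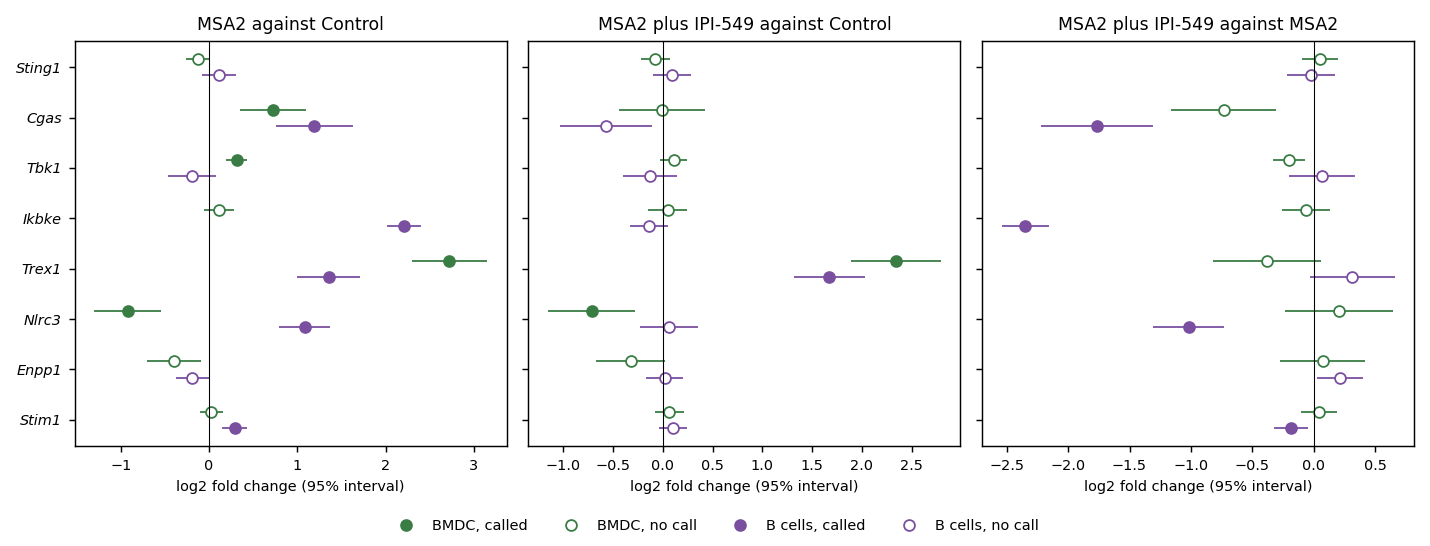
Log2 fold changes of the 8 genes with 95% intervals (x axis, log2 scale) for 3 contrasts (panels), with BMDC above B cells in each row. Filled points passed an adjusted p of 0.05; Trex1 lies to the right of 0 in both contrasts with Control, and Ikbke, Cgas and Nlrc3 of B cells lie to the right of 0 with MSA2 and to the left in the combination against MSA2.

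The sensor Cgas (ENSMUSG00000032344, chromosome 9, 78430526 to 78443237, minus strand, GRCm38) rose with MSA2 in both cell types from different levels. In BMDC it stood at 13.9 and 11.5 CPM with the combination, at 28.2, 16.3 and 19.4 CPM with MSA2 and at 12, 13.1 and 13.4 CPM in Control. All 3 MSA2 libraries lay above every Control and combination library, replicate 1 furthest, and the combination overlapped Control. MSA2 against Control gave 0.72 ± 0.17 (SE) on the log2 scale, with adjusted p = 0.00862, and the combination against Control gave -0.01 ± 0.20 (adjusted p = 0.983). Without MSA2 replicate 1 the MSA2 change was 0.47 (adjusted p = 0.00874). The combination against MSA2 gave -0.73 ± 0.19 (adjusted p = 0.247), which passed in 3 of 15 alternatives. These were without MSA2 replicate 2 (-0.90, adjusted p = 0.0438), with DESeq2 (-0.75, adjusted p = 0.00662) and with no filter in edgeR (-0.74, adjusted p = 1.46e-08).

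In B cells Cgas was low, at 49 to 75 counts per library with the combination, 201 to 233 with MSA2 and 73 to 125 in Control. It stood at 1.39, 1.12 and 1.65 CPM with the combination, at 4.52, 5.10 and 4.56 CPM with MSA2 and at 2.50, 1.60 and 2.09 CPM in Control. The MSA2 libraries again lay apart above both other groups, and the combination overlapped Control. Its log2 fold change was 1.19 ± 0.20 (adjusted p = 0.000538) for MSA2 against Control, -0.57 ± 0.21 (adjusted p = 0.382) for the combination against Control and -1.77 ± 0.21 (adjusted p = 3.76e-05) for the combination against MSA2. The rise coincided with the markers of other cells described above, and their part in it was not tested. The difference of the MSA2 effects, BMDC minus B cells, was -0.46 ± 0.27 (adjusted p = 0.197), which passed without BMDC MSA2 replicate 1 (-0.71, adjusted p = 0.0212). That of the combination against MSA2 was 0.99 ± 0.29 (adjusted p = 0.0168) and did not pass without B cell combination replicate 2 (0.86, adjusted p = 0.0547) or BMDC combination replicate 1 (0.84, adjusted p = 0.0808). An annotated gene on the opposite strand that overlaps the end of Cgas, Gm8093, held 2 to 10 counts per library, and the strand setting of the counting is not given in the sources used here.

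Sting1 (ENSMUSG00000024349, listed as Tmem173 in the annotation, chromosome 18, 35733679 to 35740554, minus strand) is the adaptor that MSA2 binds. In BMDC it stood at 99.1 and 99.99 CPM with the combination, at 98.1, 95.8 and 94.1 CPM with MSA2 and at 106, 98.2 and 111 CPM in Control. Every MSA2 library lay just below every Control library, by a small margin, and the combination overlapped Control. On the log2 scale the change was -0.13 ± 0.06 (95% interval -0.26 to 0.00, adjusted p = 0.136) for MSA2 and -0.08 ± 0.07 (interval -0.22 to 0.07, adjusted p = 0.540) for the combination, both against Control. In B cells Sting1 stood at 39.7, 35.9 and 41.3 CPM with the combination, at 38.8, 36.4 and 43.4 CPM with MSA2 and at 35.3, 35.7 and 38.7 CPM in Control. All 3 groups overlapped. In B cells the log2 fold change was 0.11 ± 0.09 for MSA2 (interval -0.08 to 0.31, adjusted p = 0.332) and 0.09 ± 0.09 for the combination (interval -0.10 to 0.28, adjusted p = 0.799). The 12 B cell markers had a median log2 fold change of -0.97 in those MSA2 libraries. The difference of the MSA2 effects, BMDC minus B cells, was -0.23 ± 0.11 (adjusted p = 0.122) and passed without B cell MSA2 replicate 2 (-0.30, adjusted p = 0.0334) and with the stricter filter (-0.29, adjusted p = 0.0294).

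**Figure D2:**
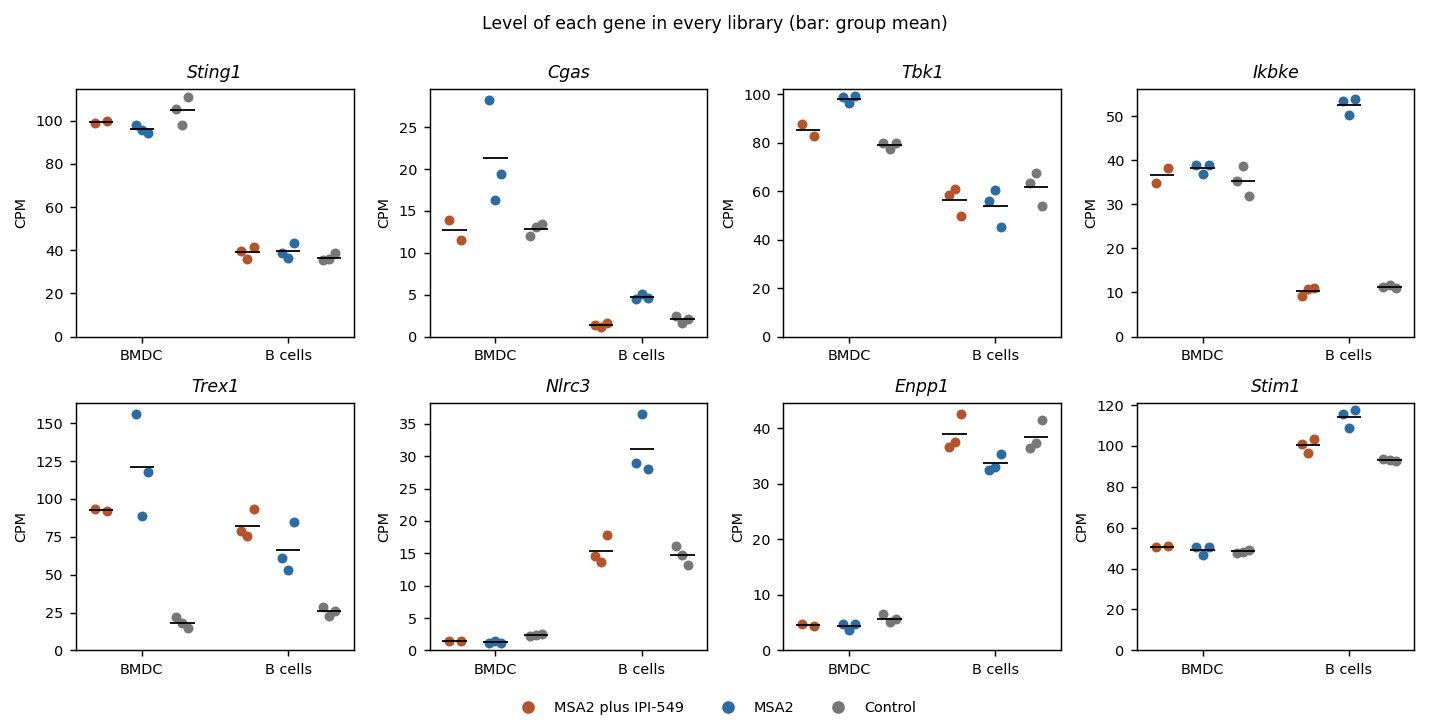
CPM (y axis, linear from 0, a scale per gene) of each of the 8 genes in all 17 libraries, with BMDC left of B cells and, within each, the combination, MSA2 and Control from left to right; bars are group means. Trex1 of both treated groups lies above Control in both cell types, Ikbke stands apart in the B cell MSA2 libraries alone (50.3 to 53.9 CPM), and Sting1 varies little within a cell type.

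TBK1 and IKKε are the 2 kinases that STING can recruit. Tbk1 (ENSMUSG00000020115, chromosome 10, 121546455 to 121586787, minus strand) stood in BMDC at 87.6 and 82.9 CPM with the combination, at 98.8, 96.1 and 99.3 CPM with MSA2 and at 79.9, 77.4 and 79.9 CPM in Control. The 3 groups did not overlap, with the combination between the other two. The rise with MSA2 was small and even (log2 fold change 0.31 ± 0.05, adjusted p = 0.00122), while the combination gave 0.11 ± 0.06 (adjusted p = 0.288) against Control and -0.20 ± 0.06 (adjusted p = 0.283) against MSA2. In B cells Tbk1 stood at 58.4, 61.0 and 49.9 CPM with the combination, at 56.0, 60.2 and 45.1 CPM with MSA2 and at 63.3, 67.3 and 53.9 CPM in Control. The groups overlapped, and replicate 3 was the lowest library in all 3 groups, as it was the highest in all 3 for Sting1 and for Enpp1. The log2 fold change was -0.19 ± 0.12 (adjusted p = 0.231) with MSA2, and -0.20 (adjusted p = 0.0256) in a fit with the replicate number of the titles as a block. The combination gave -0.12 ± 0.12 (adjusted p = 0.804). The difference of the MSA2 effects, BMDC minus B cells, was 0.51 ± 0.14 (adjusted p = 0.00595).

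Ikbke (ENSMUSG00000042349, chromosome 1, 131254343 to 131279606, minus strand) changed in the B cell libraries. It stood there at 9.31, 10.7 and 10.99 CPM with the combination, at 53.4, 50.3 and 53.9 CPM with MSA2 and at 11.4, 11.7 and 10.9 CPM in Control. The MSA2 libraries lay far above both other groups, which overlapped. These MSA2 libraries also held the markers of other cells described above, and the part of those cells in the rise was not tested. Its log2 fold change was 2.21 ± 0.09 (adjusted p = 8.50e-09) for MSA2 against Control, -0.14 ± 0.09 (adjusted p = 0.664) for the combination against Control and -2.35 ± 0.09 (adjusted p = 5.94e-09) for the combination against MSA2. BMDC held Ikbke at 34.9 and 38.2 CPM with the combination, at 39.0, 36.9 and 38.9 CPM with MSA2 and at 35.3, 38.8 and 32.0 CPM in Control. All 3 BMDC groups overlapped, with log2 fold changes against Control of 0.05 ± 0.09 (interval -0.15 to 0.24, adjusted p = 0.787) for the combination and 0.11 ± 0.08 (interval -0.06 to 0.29, adjusted p = 0.328) for MSA2. The difference between the cell types, BMDC minus B cells, was -2.09 ± 0.12 (adjusted p = 1.35e-10) for MSA2 against Control and 2.24 ± 0.13 (adjusted p = 1.21e-10) for the combination against MSA2. The small annotated genes on the opposite strand of Ikbke, Gm28913 and Gm28914, held at most 6 counts in any library.

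The balance of the kinases followed Ikbke in B cells. The ratio of Ikbke to Tbk1 counts was 0.159, 0.175 and 0.220 with the combination, 0.954, 0.835 and 1.19 with MSA2 and 0.179, 0.174 and 0.203 in Control. In BMDC the ratio was 0.399 and 0.461 with the combination, 0.395, 0.384 and 0.392 with MSA2 and 0.441, 0.50 and 0.400 in Control. The B cell MSA2 libraries thus exceeded every BMDC library in this ratio, while untreated B cells lay below every BMDC library. The same 3 libraries held the high T cell, myeloid and erythroid markers, and the part of those cells in the ratio was not tested. The ratio of the combination libraries overlapped Control in both cell types.

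**Figure D3:**
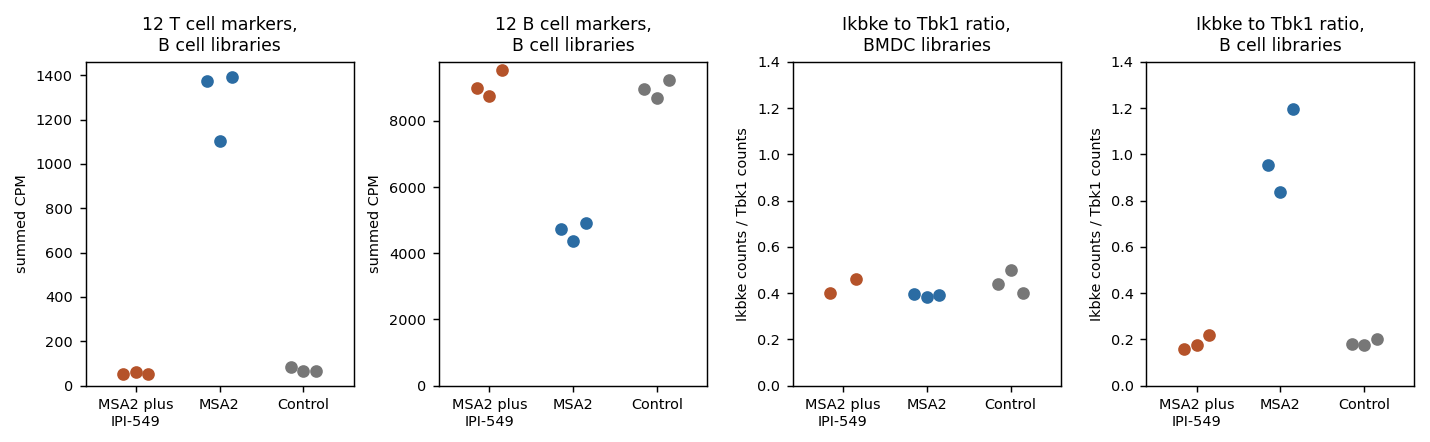
Left, summed CPM of the 12 T cell and of the 12 B cell markers in each B cell library; right, the ratio of Ikbke to Tbk1 counts in each BMDC and each B cell library, with the combination, MSA2 and Control from left to right and linear axes from 0. The B cell MSA2 libraries, with T cell sums of 1105 to 1393 CPM, are the ones with ratios of 0.835 to 1.19.

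Of the brakes, Trex1 (ENSMUSG00000049734, chromosome 9, 109057933 to 109059734, minus strand) rose the most. In BMDC it stood at 93.1 and 92.2 CPM with the combination, at 156, 88.7 and 118 CPM with MSA2 and at 22.1, 18.0 and 14.7 CPM in Control. Both treated groups lay above every Control library, and they overlapped each other, MSA2 replicate 1 being the highest. The log2 fold change against Control was 2.34 ± 0.20 (adjusted p = 1.73e-05) for the combination and 2.72 ± 0.19 (adjusted p = 1.80e-06) for MSA2. The combination against MSA2 gave -0.38 ± 0.20 (interval -0.82 to 0.06, adjusted p = 0.529). In B cells Trex1 stood at 78.5, 75.4 and 93.2 CPM with the combination, at 61.2, 52.9 and 84.7 CPM with MSA2 and at 28.6, 23.0 and 26.0 CPM in Control. Both treated groups again lay apart from Control and overlapped each other. Against Control, the log2 fold change was 1.67 ± 0.16 (adjusted p = 0.000230) for the combination and 1.36 ± 0.16 (adjusted p = 4.24e-05) for MSA2. The part of other cells in the Trex1 changes was not tested. The combination against MSA2 was 0.31 ± 0.16 (interval -0.03 to 0.66, adjusted p = 0.145) and passed without MSA2 replicate 3 (0.54, adjusted p = 0.00509) and with the replicate block (0.33, adjusted p = 0.0367).

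The MSA2 effect on Trex1 was larger in BMDC than in B cells, with a difference of 1.37 ± 0.27 (adjusted p = 0.000656). For the combination against Control the difference was 0.64 ± 0.29 (adjusted p = 0.334). That for the combination against MSA2 was -0.74 ± 0.28 (adjusted p = 0.0715) and passed without B cell MSA2 replicate 3 (-0.96, adjusted p = 0.0115) or BMDC MSA2 replicate 2 (-0.92, adjusted p = 0.0172), with DESeq2 (-0.74, adjusted p = 0.0431), with no filter (-0.73, adjusted p = 0.00134) and with the replicate block (-0.79, adjusted p = 0.0181). The ratio of Trex1 to Cgas counts, the DNA-removing enzyme to the DNA sensor, averaged 7.34 ± 0.926 (SD, n = 2) with the combination, 5.69 ± 0.324 (n = 3) with MSA2 and 1.44 ± 0.375 (n = 3) in Control in BMDC. In B cells it averaged 60.1 ± 6.08 with the combination, 14.2 ± 4.13 with MSA2 and 12.8 ± 1.5 in Control (n = 3 each). The combination libraries lay above every MSA2 and every Control library in this ratio in both cell types. In BMDC the MSA2 libraries also lay above Control, while with MSA2 the B cell values of 10.4 to 18.6 overlapped the Control values of 11.4 to 14.4. Cgas held only 49 to 75 counts per B cell combination library, so the ratio there rests on low counts. The B cell MSA2 libraries held the markers of other cells, whose part in the ratio was not tested. This ratio was added after its values were seen. Trex1 lies wholly within the annotated span of Atrip on the same strand, so reads of the 2 genes could be exchanged by the counting. Atrip, a partner of the DNA damage kinase ATR, held 687 to 866 counts per library in B cells and 392 to 1057 in BMDC. Its log2 fold change with MSA2 was 0.28 ± 0.09 in BMDC (adjusted p = 0.0324) and 0.04 ± 0.10 in B cells (adjusted p = 0.770), far smaller than that of Trex1.

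Nlrc3 (ENSMUSG00000049871, chromosome 16, 3945007 to 3976632, minus strand) changed in opposite directions in the 2 cell types with MSA2. In BMDC it was close to the lower end of detection, at 43 to 103 counts per library over all 8, and stood at 1.44 and 1.41 CPM with the combination, at 1.13, 1.4 and 1.15 CPM with MSA2 and at 2.21, 2.31 and 2.51 CPM in Control. All 5 treated libraries lay below all 3 Control libraries. Its log2 fold change was -0.92 ± 0.17 (adjusted p = 0.00220) for MSA2 and -0.71 ± 0.20 (adjusted p = 0.0364) for the combination, both against Control. The call for the combination did not pass without any one of 6 libraries (each Control replicate, MSA2 replicate 3 and each combination replicate), at adjusted p = 0.0515 to 0.174, nor with DESeq2 (adjusted p = 0.0663) or the replicate block (adjusted p = 0.0981). In B cells Nlrc3 stood at 14.6, 13.7 and 17.8 CPM with the combination, at 29.0, 36.5 and 27.95 CPM with MSA2 and at 16.1, 14.7 and 13.2 CPM in Control. The MSA2 libraries lay above both other groups, which overlapped. On the log2 scale the change was 1.08 ± 0.13 (adjusted p = 5.12e-05) for MSA2 against Control, 0.07 ± 0.13 (adjusted p = 0.920) for the combination against Control and -1.02 ± 0.13 (adjusted p = 8.76e-05) for the combination against MSA2. As background, Nlrc3 is expressed in T cells, whose 12 markers were all higher in these MSA2 libraries, and their part in the rise was not tested.

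The difference of the Nlrc3 effects, BMDC minus B cells, was -1.99 ± 0.21 (adjusted p = 3.96e-07) for MSA2 and 1.18 ± 0.23 (adjusted p = 0.000955) for the combination against MSA2. For the combination against Control it was -0.81 ± 0.23 (adjusted p = 0.0646), which passed without B cell MSA2 replicate 2 (-0.81, adjusted p = 0.0354) or B cell combination replicate 2 (-0.89, adjusted p = 0.0435). Over all 8 genes, the differences between the cell types called 5 for MSA2 (Tbk1, Ikbke, Trex1, Nlrc3, Stim1), beside 37.0% of 17739 genes, and 3 for the combination against MSA2 (Cgas, Ikbke, Nlrc3), beside 24.1%. For the combination against Control, edgeR called 0 of 8, beside 3.04% of all genes. At an unadjusted p under 0.05 it held 3 of the 8, beside 2445 of 17739 genes. DESeq2 called 1 of the 8 (Nlrc3), beside 534 genes higher and 354 lower, and limma-voom 0, beside 320 and 119.

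Enpp1 (ENSMUSG00000037370, chromosome 10, 24637914 to 24712159, minus strand), the enzyme that breaks down cGAMP outside cells, was called in none of the within-cell-type comparisons. In BMDC it stood at 4.69 and 4.41 CPM with the combination, at 4.66, 3.71 and 4.68 CPM with MSA2 and at 6.50, 5.04 and 5.56 CPM in Control. All 5 treated libraries lay below all 3 Control libraries. The log2 fold change was -0.32 ± 0.16 (adjusted p = 0.232) for the combination and -0.40 ± 0.14 (interval -0.70 to -0.09, adjusted p = 0.0543) for MSA2, which passed without Control replicate 2 (-0.48, adjusted p = 0.0424), with no filter on low counts (adjusted p = 0.0432) and with limma-voom (adjusted p = 0.0445). In B cells Enpp1 stood at 36.6, 37.6 and 42.6 CPM with the combination, at 32.5, 33.0 and 35.4 CPM with MSA2 and at 36.4, 37.4 and 41.5 CPM in Control. The MSA2 libraries lay below both other groups, which overlapped. The log2 fold change was -0.19 ± 0.09 with MSA2 (adjusted p = 0.0901) and 0.02 ± 0.08 with the combination (interval -0.17 to 0.21, adjusted p = 0.969), both against Control. With the replicate block the MSA2 change was -0.19 (adjusted p = 0.0324). The combination against MSA2 gave 0.21 ± 0.09 (adjusted p = 0.0752), and 0.21 with the block (adjusted p = 0.0259).

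Stim1 (ENSMUSG00000030987, chromosome 7, 102267806 to 102437319, plus strand), which senses calcium in the endoplasmic reticulum, changed little, and Gm18255 is annotated on its opposite strand. In B cells it stood at 101, 96.5 and 103 CPM with the combination, at 116, 109 and 117 CPM with MSA2 and at 93.5, 93.3 and 92.6 CPM in Control. The 3 groups did not overlap. Its log2 fold change was 0.29 ± 0.06 (adjusted p = 0.00330) for MSA2 against Control and 0.11 ± 0.06 (adjusted p = 0.645) for the combination against Control. The combination against MSA2 gave -0.18 ± 0.06 (adjusted p = 0.0403), which did not pass without any one library other than MSA2 replicate 2 (8 of 9 libraries, adjusted p = 0.0555 to 0.162), with RLE factors (adjusted p = 0.0527), with no filter (adjusted p = 0.255) or with the compared groups alone (adjusted p = 0.0872). In BMDC it stood at 50.5 and 50.8 CPM with the combination, at 50.4, 46.6 and 50.5 CPM with MSA2 and at 47.5, 48.4 and 49.3 CPM in Control. MSA2 overlapped both other groups, and the combination lay just above Control. Against Control, the log2 fold change was 0.07 ± 0.07 (interval -0.08 to 0.21, adjusted p = 0.595) for the combination and 0.02 ± 0.06 (interval -0.11 to 0.15, adjusted p = 0.817) for MSA2. The difference of the MSA2 effects, BMDC minus B cells, was -0.26 ± 0.09 (adjusted p = 0.0247) and did not pass without BMDC Control replicate 3 (-0.24, adjusted p = 0.0552), without BMDC MSA2 replicate 2 (-0.22, adjusted p = 0.0628) or with no filter (adjusted p = 0.167). That of the combination against MSA2 was 0.19 ± 0.09 (adjusted p = 0.154) and passed without B cell MSA2 replicate 2 (0.23, adjusted p = 0.0485) and with the stricter filter (0.22, adjusted p = 0.0458). The rise with MSA2 in B cells occurred in the libraries with other-cell markers, whose part in it was not tested.

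Genes around the 8 in the pathway were taken from lists chosen by function, with earlier results of these data known. Counts from these lists describe them and are no test. The counts stand beside the shares of all genes called higher and lower against Control. In BMDC these were 14.6% and 13.5% with MSA2 and 7.51% and 5.38% with the combination. In B cells they were 24.8% and 18.5% with MSA2 and 0.685% and 0.371% with the combination. For the combination, 1564 of 16194 genes in B cells and 3771 of 14613 in BMDC had an unadjusted p under 0.05 in edgeR. DESeq2 called 198 higher and 193 lower in B cells, and 1161 and 900 in BMDC. Limma-voom called 113 and 56 in B cells, and 1058 and 749 in BMDC. Of 6 output genes (Ifnb1, Cxcl10, Isg15, Ifit1, Il6, Tnf), all 6 rose in each cell type with each treatment against Control by edgeR and by limma-voom. DESeq2 called 6 of 6 in B cells and 4 of 6 in BMDC with each treatment, and gave the other 2 no adjusted p in BMDC. Isg15, a ubiquitin-like modifier induced by interferon, showed log2 fold changes of 5.72 ± 0.30 (adjusted p = 3.21e-07) with the combination and 5.99 ± 0.29 (adjusted p = 9.86e-08) with MSA2 in BMDC, and 4.08 ± 0.19 (adjusted p = 3.35e-07) and 4.2 ± 0.19 (adjusted p = 2.09e-08) in B cells. The outputs were thus higher in the B cell combination libraries too, in which 7 of the 8 core genes were not called against Control.

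Among 7 transcription factors of the pathway, 5 rose and 0 fell with MSA2 in BMDC, and 4 rose and 0 fell with the combination (medians 0.58 and 0.43), beside 14.6% higher and 13.5% lower of all genes with MSA2 and 7.51% and 5.38% with the combination. Irf7, which interferon induces and which amplifies interferon, rose by 1.29 ± 0.13 on the log2 scale with MSA2 (adjusted p = 2.31e-05) and by 0.69 ± 0.14 with the combination (adjusted p = 0.00835) in BMDC. Irf8 (1.02) and Relb (0.72), factors of dendritic cell development and of non-canonical NF-κB, rose with MSA2 there as well. With MSA2 in B cells, 1 rose and 3 fell (median -0.24). Irf7 rose there (1.29 ± 0.12, adjusted p = 4.65e-06), while Irf8 (-0.47) and Irf5 (-0.47) were among those that fell, in libraries whose B cell markers had a median of -0.97. With the combination Irf7 alone was called in B cells (1.10 ± 0.12, adjusted p = 0.000473).

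Of 11 kinase adaptors tested, 4 rose and 2 fell with MSA2 in BMDC, and 4 rose and 0 fell with the combination (medians 0.09 and 0.01), beside 14.6% higher and 13.5% lower of all genes with MSA2 and 7.51% and 5.38% with the combination. The risers included Tank (0.68 ± 0.08, adjusted p = 0.000133), which tethers TBK1 and IKKε, and Traf6 (0.51) and Traf3 (0.48), ubiquitin ligases of the signalling complexes. With MSA2 in B cells, 2 rose and 4 fell (median -0.19), beside 24.8% higher and 18.5% lower of all genes, so the share that rose was near that of all genes. Tbkbp1, an adaptor of TBK1 and IKKε, stood there at 0.887, 0.940 and 0.947 CPM with the combination, at 5.37, 6.28 and 4.07 CPM with MSA2 and at 0.759, 0.743 and 1.01 CPM in Control. Its log2 fold change was 2.64 ± 0.22 for MSA2 against Control (adjusted p = 2.03e-06). Markers of other cells were high in the same MSA2 libraries, and their part was not tested. In B cells with the combination, edgeR called 0 of 11, with 1 at an unadjusted p under 0.05 and 0 by DESeq2 and by limma-voom.

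Of 11 genes of DNA sensing and nuclease action, 4 rose and 1 fell with MSA2 in BMDC, and 3 rose and 0 fell with the combination (medians 0.13 and 0.13), beside 14.6% higher and 13.5% lower of all genes with MSA2 and 7.51% and 5.38% with the combination. Zbp1 (1.11 ± 0.09) and Ifi204 (1.34 ± 0.11), both nucleic acid sensors that interferon induces, and the DNase Dnase1l3 (4.83 ± 0.43) rose with MSA2. Dnase1l3 stayed near the floor in BMDC, at no more than 2.89 CPM with MSA2. In B cells with MSA2, 2 rose and 3 fell (median -0.004), with Ifi204 at 5.40 ± 0.21, Ddx41 at -0.71 ± 0.08 and Dnase2a at -0.63 ± 0.07. Ifi204, a gene of myeloid cells, stood in B cells at 0.173, 0.321 and 0.220 CPM with the combination, at 15.8, 18.7 and 18.1 CPM with MSA2 and at 0.540, 0.394 and 0.292 CPM in Control, beside the myeloid markers, whose part was not tested. In B cells with the combination, edgeR called 0 of 11, with 3 at an unadjusted p under 0.05 and 0 by DESeq2 and by limma-voom.

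Of 17 genes of STING trafficking and turnover, 3 rose and 5 fell with MSA2 in BMDC (median -0.01), beside 14.6% higher and 13.5% lower of all genes, so the share that rose was near that of all genes. Usp18, a gene induced by interferon, rose (1.3 ± 0.23, adjusted p = 0.00137), as did Insig1 (0.72), while Usp20 fell (-0.49). With the combination edgeR called 0 of 17 in BMDC, with 3 at an unadjusted p under 0.05, 1 by DESeq2 and 0 by limma-voom. In B cells with MSA2, 6 rose and 2 fell (median 0.16), among the risers Usp18 (1.64), the autophagy kinase Ulk1 (0.95) and the ubiquitin ligase Trim56 (0.51). Those MSA2 libraries held the markers of other cells, whose part was not tested. With the combination edgeR called 0 of 17 in B cells, with 1 at an unadjusted p under 0.05 and 0 by DESeq2 and by limma-voom.

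Of 6 genes tested that carry cGAMP across membranes or break it down, 1 rose and 2 fell with MSA2 in BMDC, and 1 rose and 1 fell with the combination (medians -0.08 and -0.03). Lrrc8d, a subunit of the volume-regulated channel, rose with MSA2 (0.82 ± 0.08), and another subunit, Lrrc8a (-0.62), fell, as did P2rx7, an ATP-gated channel (-0.58). In B cells with MSA2, 2 rose and 0 fell (median 0.16), P2rx7 by 3.62 ± 0.22 and Lrrc8a by 0.78 ± 0.21. P2rx7 stood there at 0.909, 1.24 and 0.638 CPM with the combination, at 10.7, 13.1 and 15.2 CPM with MSA2 and at 1.08, 0.962 and 1.12 CPM in Control, and untreated BMDC exceeded untreated B cells by 4.91 on the log2 scale. The 63 markers of other cells were high in the same MSA2 libraries, and their part was not tested. With the combination edgeR called 0 of 6 in B cells, with 1 at an unadjusted p under 0.05 and 0 by DESeq2 and by limma-voom. Of 5 partners of Stim1 in calcium entry, 1 rose (Stim2, 0.56) and 2 fell (the channel genes Orai1, -0.86, and Orai2, -0.33) with MSA2 in BMDC, and the same counts were found with the combination. With MSA2 in B cells, 4 rose and 1 fell, with Saraf, a brake on Stim1, at 1.57 ± 0.10, Orai2 at 0.60 and Orai3 at -0.37. With the combination edgeR called 0 of 5 in B cells, none at an unadjusted p under 0.05 and 0 by either other tool. In BMDC the combination against MSA2 called 0 genes of these 7 lists by edgeR, with 11 at an unadjusted p under 0.05, 3 by DESeq2 and 0 by limma-voom. Of all 14613 genes, edgeR called 0 there, with 1595 at an unadjusted p under 0.05. DESeq2 called 29 higher and 142 lower, and limma-voom 1 and 2.

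**Figure D4:**
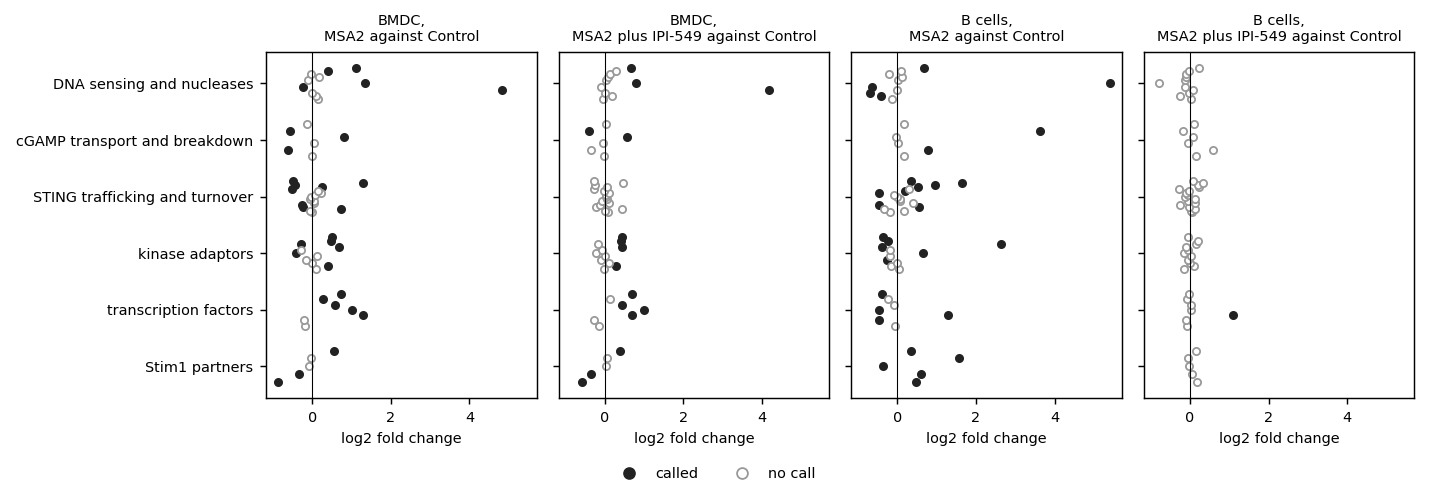
Log2 fold changes (x axis) of each gene of 6 lists (rows, 1 point per gene), namely DNA sensing and nucleases, cGAMP transport and breakdown, STING trafficking and turnover, kinase adaptors, transcription factors and Stim1 partners, without the output genes, for MSA2 and for the combination, each against Control, in BMDC (left pair of panels) and in B cells (right pair). Filled points passed an adjusted p of 0.05; in B cells with the combination the single filled point is Irf7 (1.10).

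For each of the 8 genes, the 3 genes whose log2 CPM ran closest to it were found over the 17 libraries, with the mean of each cell type taken off, among 8763 genes averaging 5 CPM or more in both cell types. For Ikbke these were Trf (Pearson r = 0.994), S100a6 (0.994) and Fyb (0.993), and for Trex1 they were Dbr1 (0.978), Ppp1r15a (0.977) and A630072M18Rik (0.97). Cgas ran closest to Arhgap31 (0.924), Ocrl (0.915) and Tnfsf8 (0.913), and Nlrc3 to Lpin1 (0.951), Syt11 (0.945) and Plec (0.944). The nearest for the other genes were Ccnd3 (0.942), 1600014C10Rik (0.938) and Pdcd6ip (0.936) for Stim1, and Washc4 (0.938), Tasor (0.908) and Wdr37 (0.896) for Tbk1. They were Nek9 (0.927), Zfp740 (0.891) and Rad9a (0.888) for Enpp1, and Pdha1 (0.881), Tmx2 (0.868) and Lrrc20 (0.852) for Sting1. These values describe likeness only. The libraries fall into treatment groups, and the points share library make-up, which for Ikbke means the 3 B cell MSA2 libraries above all others.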

How the data were processed

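RNA was sequenced from 9 libraries of mouse B cells and 8 of BMDC, with a table for each cell type. The authors deposited RSEM expected counts per gene, as whole numbers, after trimming with cutadapt 4.8, quality control with FastQC 0.11.8 and MultiQC 1.20, alignment with STAR 2.7.8a and quantification with RSEM 1.3.3 against GRCm38, per the submitters' processing notes. The strand setting and the annotation release are not given in the sources used here. RSEM divides reads that fit several genes, which bears on Trex1 and Atrip.

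Groups were read from the sample titles. The replicate numbers of the titles were checked by correlating deviations from group means. In B cells all 3 same-numbered pairs of the combination and MSA2 correlated above 0.1 (r = 0.116, 0.152 and 0.261). The labels do not say whether the numbers pair libraries, and libraries of unlike number were not correlated. Pairing is thus not established, and the blocked values of that comparison are given where they change a call. The 4 reporter rows were left out. Each cell type was fitted over its 3 groups with edgeR 4.0.16 (R 4.3.3; TMM factors, filterByExpr, quasi-likelihood F test, Benjamini-Hochberg adjustment over all genes tested, threshold 0.05), and differences between cell types in a joint fit of all 17 libraries. The steps were tested on simulated data. Alternatives were DESeq2 1.42.0 and limma-voom (limma 3.58.1) as other tools, RLE in place of TMM factors, testing every gene or only those reaching 1 CPM in at least 3 libraries, a replicate block, fitting just the compared groups, and leaving out each library. Levels per kb used the exon union length of the GENCODE M21 annotation of GRCm38.

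The 8 genes and all lists were chosen with earlier results of these data known. Text names the 8, up to 3 called genes per list and comparison with the smallest adjusted p, and the 3 nearest genes by correlation. Atrip, the other genes overlapping a member, and the ratio of Trex1 to Cgas were added after their values were seen. No p was adjusted over a list alone. Figures were drawn with matplotlib 3.10.9 in Python 3.11.15.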

Additional observations from a re-analysis of the deposited data

Results flagged for a closer look

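The change with MSA2 against Control differed between the cell types, by the interaction term of the joint edgeR fit, for 5 of the 8 genes. Over all genes, 37.0% of the 17739 tested were called in this contrast. The difference of log2 fold changes, BMDC minus B cells, was -2.09 for Ikbke, -1.99 for Nlrc3, 1.37 for Trex1, 0.51 for Tbk1 and -0.26 for Stim1. For Nlrc3 the effects had opposite signs, -0.92 in BMDC and 1.08 in B cells, and both were called. For Trex1 both were positive, 2.72 in BMDC and 1.36 in B cells. For Tbk1 the BMDC effect was called (0.31) and the B cell effect was not (-0.19). For Ikbke and Stim1 the B cell effects were called (2.21 and 0.29) and the BMDC effects were not (0.11 and 0.02).

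For the combination against MSA2 the effects differed for 3 of the 8 genes, beside 24.1% of all genes. The differences were 2.24 for Ikbke, 1.18 for Nlrc3 and 0.99 for Cgas. In B cells each of these genes was lower with the combination than with MSA2 (-2.35, -1.02 and -1.77), while in BMDC none was called. All 8 of these differences rest on the B cell MSA2 libraries, in which the 63 markers of other cells were called higher, and the part of those cells was not tested.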

How the results depend on the processing

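Of the comparisons of effects and groups, the number of the 8 genes called moved past 1.5 times its value in few cases. BMDC combination against Control (2 called) gave 1 with DESeq2, 1 with the replicate block, and 1 to 2 when single libraries were left out. Of 14613 genes, 1097 were higher and 786 lower in the main fit, 1161 and 900 with DESeq2, and 940 and 563 with the block. BMDC combination against MSA2 (0 called) gave 2 with no filter, 1 with DESeq2 and 0 to 1 without single libraries. Over all genes the main fit called 0 there. With no filter 106 were higher and 455 lower of 24773, and with DESeq2 29 and 142 of 14613. The difference between cell types for the combination against Control (0 called) gave 2 with no filter, 1 with DESeq2 and 0 to 1 without single libraries. Over all genes, 379 were higher and 160 lower of 17739 in the main fit, and 534 and 354 with DESeq2. With no filter the counts were 527 and 291 of 29414. The difference between cell types for the combination against MSA2 (3 called) gave 5 with the replicate block. Of 17739 genes, 2708 were higher and 1566 lower in the main fit, and 2624 and 1580 with the block. The cause was not tested. Over all alternatives, 169 counts of called genes stayed within that limit, 8 were higher and 8 lower. Of the values of single genes, 1403 kept their direction and side of the threshold, 36 gained a call, 24 lost one and 17 changed sign.

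The sign changes were all of uncalled values near 0. Sting1 in B cells, combination against MSA2, was 0.012 with no filter and -0.064 to 0.056 without single libraries. Without single libraries the ranges in B cells were -0.053 to 0.077 for Enpp1 and -0.054 to 0.14 for Nlrc3, combination against Control, and -0.036 to 0.17 for Tbk1 against MSA2. In BMDC they were -0.15 to 0.12 for Cgas and -0.018 to 0.12 for Ikbke, combination against Control, and -0.039 to 0.13 for Enpp1 against MSA2. For the difference between cell types, combination against MSA2, Sting1 ranged over -0.041 to 0.095. With no filter, Trex1 was also called in BMDC for the combination against MSA2 (-0.39, adjusted p = 0.000381 by edgeR).

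Same-numbered libraries deviated together (r above 0.1) in all 3 pairs of the combination and MSA2 in B cells, where the replicate block added Trex1 and Enpp1 and changed no other call. They did so in 0 of the other 6 B cell pairs and 1 of 7 BMDC pairs. The labels do not say that the numbers pair any of these libraries. In the other comparisons within a cell type the block added Tbk1 and Enpp1 in B cells (MSA2 against Control). It lost Nlrc3 in BMDC (combination against Control). BMDC combination has 2 libraries, which limits its comparisons, and low counts limit Nlrc3 in BMDC and Cgas in B cells.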
